A study of Homo sapiens with 6 samples.

Results

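A total of 40 genes of the centromere, the kinetochore and the spindle checkpoint were examined in HT29 cells, a human colorectal adenocarcinoma line. They were taken by gene symbol from a list of CENP proteins, the KMN network, the checkpoint, the chromosomal passenger complex and the SKA complex, and all 40 were found among the 28278 genes of the count files. All 40 had enough reads to be tested, together with 15307 genes in all. RNA was taken 48 h after transfection of siRNA against ALDOA (siALDOA, 3 biological replicates) or of a scrambled siRNA (siControl, 3 biological replicates), and both groups were otherwise the same line without a further allele or agent. The labels describe the siRNA against ALDOA in the singular and give no sequence, and untransfected cells were not among the samples, so an effect of ALDOA loss and an effect of that siRNA itself cannot be told apart. Levels are given as CPM, a gene's count relative to the library's total count after TMM scaling, and differences as log2 fold changes of siALDOA over siControl with their standard error (SE) from edgeR's quasi-likelihood test, with p adjusted by Benjamini-Hochberg over all tested genes.

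The centromere is the site of each chromosome on which the kinetochore is built. Nucleosomes with the histone H3 variant CENP-A mark it, and the constitutive centromere-associated network binds them throughout the cell cycle. The KMN network (KNL1, MIS12 and NDC80 complexes) joins this inner layer to spindle microtubules in mitosis, and the SKA complex strengthens the grip. The spindle checkpoint delays anaphase until every kinetochore is attached, and the chromosomal passenger complex with the kinase Aurora B releases wrong attachments. Many of these mRNAs are made mainly in G2 and mitosis, so in bulk RNA more cells in these phases and more RNA per cell cannot be told apart.

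Of the 40 genes, 5 were higher with siALDOA at an adjusted p below 0.05 (12.5%), where 4.36% of all tested genes were, and 1 was lower (2.5%), where 5.29% of all tested genes were. The 5 higher genes were CENPK of the inner kinetochore, SPC24 of the NDC80 complex, the checkpoint kinases BUB1 and TTK, and SKA2 of the SKA complex. The lower gene was CENPF, a large coiled-coil protein of the outer kinetochore. The changes were small, from 1.22-fold for SKA2 to 1.37-fold for SPC24 among the higher genes, and the level of CENPF in siALDOA was 0.80 times that in siControl. A log2 fold change above 0 was found in 29 of the 40 genes (72.5%) and in 50.3% of all tested genes, and the median was 0.14 over the 40 genes and 0.0016 over all tested genes. In 13 of the 40 genes (32.5%) every siALDOA library was above every siControl library, against 13.1% of all tested genes, and in 3 genes (7.5%) every siALDOA library was below, against 14.6% of all tested genes.

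**Figure D1:**
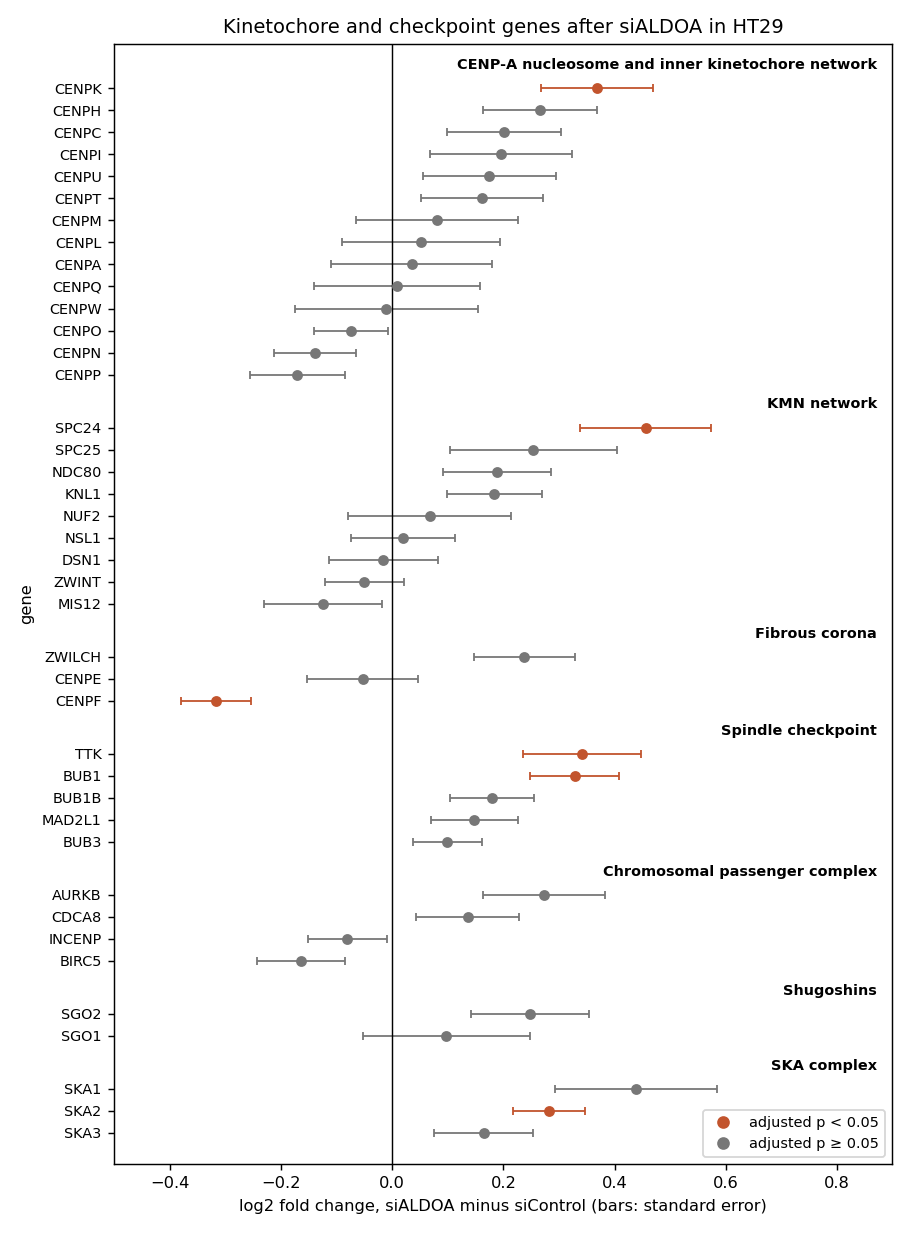
Log2 fold change of each of the 40 genes (x axis, siALDOA minus siControl, bars are the standard error) by sub-complex (y axis), with 3 libraries a group. The 6 genes at an adjusted p below 0.05 are in orange, and CENPF is the one of them left of 0, at -0.32.

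As a check of the knockdown, ALDOA (ENSG00000149925, chromosome 16, 30064164 to 30070457 on hg38) was at 283, 305 and 279.7 CPM in siALDOA replicates 1, 2 and 3 and at 592, 637 and 668 CPM in siControl, a log2 fold change of -1.13 (SE 0.060, adjusted p = 6.95e-11). Its exons share 54.2% of their length with other annotated genes. The libraries held from 27277538 to 33237914 counts, and the 40 genes had from 133 counts (CENPW) to 4286 counts (CENPF) in a library. Ribosomal RNA took 7.71% to 13.1% of the counts with siALDOA and 8.15% to 17.4% with siControl, and without these genes the same numbers of the 40 genes, 5 and 1, passed in the 2 directions. Of 11 markers of colon epithelium, 10 were expressed and LGALS4 had no count in any library. The summed markers were at 8293 to 8988 CPM of the unscaled library total with siALDOA and at 8634 to 9988 with siControl, and KRT18 was the 1 marker that passed, with a log2 fold change of -0.28 (SE 0.072, adjusted p = 0.0152). Of the 10, 8 had a log2 fold change below 0 with a median of -0.12, and 5 (50%, against 14.6% of all tested genes) were lower in every siALDOA library than in any siControl library. The medians by library of these markers, taken as log2 CPM minus the siControl mean, were -0.14 to -0.074 with siALDOA and -0.036 to 0.034 with siControl, and their part in the results on the 40 genes was not tested. In the unscaled unit, 6 fibroblast markers summed to 3.31 to 4.51 with siALDOA and 2.91 to 4.18 with siControl. The sums of 7 blood cell markers were 0.174 to 0.293 and 0.156 to 0.241, with CD3E, TYROBP and S100A8 at 0 in all libraries.

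Promoter sequences of the genes that passed the test are shown because they share a feature that the choice of genes did not use. The word CCAAT, read on either strand and so also as ATTGG, is the binding motif of the factor NF-Y and is known from promoters of mitotic genes, often in spaced copies. The 250 bases before the transcription start were searched in the RefSeq table of build GRCh38.p14, in which 33 of the 40 genes had an entry and TTK had none. At least 2 copies were found in 13 of the 33 promoters (39.4%), in 12.6% of the promoters of 11344 tested genes and in 10% of all 27305 promoters. All 5 genes with an entry that passed the test had at least 2 copies, against 8 of the other 28, and the set includes CENPF, which was lower. The 8 were CDCA8, CENPA, CENPC and SPC25, with a log2 fold change above 0, and CENPW, INCENP, MIS12 and ZWINT, below 0. SKA1, with a log2 fold change of 0.44 and an adjusted p of 0.0650 in edgeR's test, had 0 copies. These are counts of words, split at the same threshold by which the genes were picked, and they were not tested. In the stretches below, written 5′ to 3′ along the gene and free of annotated exons, capitals mark CCAAT or ATTGG.
BUB1, chr2:110678098-110678157, minus strand: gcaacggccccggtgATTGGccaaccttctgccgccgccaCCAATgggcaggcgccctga
CENPF, chr1:214603086-214603181, plus strand: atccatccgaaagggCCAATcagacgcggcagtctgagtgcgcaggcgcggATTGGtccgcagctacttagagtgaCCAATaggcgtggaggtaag
CENPK, chr5:65563169-65563229, minus strand: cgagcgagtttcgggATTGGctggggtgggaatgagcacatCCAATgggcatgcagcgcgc
SPC24, chr19:11155837-11156004, minus strand: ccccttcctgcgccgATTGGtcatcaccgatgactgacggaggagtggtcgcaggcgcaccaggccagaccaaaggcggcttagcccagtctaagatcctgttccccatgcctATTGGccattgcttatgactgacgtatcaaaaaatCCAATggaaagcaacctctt
SKA2, chr17:59155261-59155420, minus strand: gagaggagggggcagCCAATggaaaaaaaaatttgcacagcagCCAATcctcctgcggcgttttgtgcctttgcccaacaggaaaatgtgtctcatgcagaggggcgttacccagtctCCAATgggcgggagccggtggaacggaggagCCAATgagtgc
The starts of the 2 copies of BUB1 lay 25 bases apart, and in CENPF the 3 copies lay 36 and 25 bases apart. The SPC24 copies lay 98 and 35 bases apart. CENPK had 3 copies in the window, 53 and 26 bases apart, of which 2 are in the stretch shown, and SKA2 had 5, of which 4 are shown. The words TTTGAA and TTTAAA, forms of the cell cycle genes homology region and searched in the same way, were found in 7 (21.2%) and 3 (9.09%) of the 33 promoters, against 8.82% and 7.31% of tested genes and 13.6% and 11.4% of all promoters. Each word was searched on both strands and counted also where it overlapped another, and among the 5 promoters shown only the window of CENPF held one of them, TTTAAA.

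The inner kinetochore was represented by CENP-A and 13 proteins of the constitutive network. Of these 14 genes, 10 had a log2 fold change above 0 (71.4%, against 50.3% of all tested genes) with a median of 0.066. Of the 14, 1 passed the test (7.14%, near the 4.36% of all tested genes that were higher). Leaving out 1 library gave medians from 0.020 (siControl replicate 2) to 0.11 (siALDOA replicate 1). The gene that passed was CENPK (ENSG00000123219, chromosome 5, 65517766 to 65563168), a subunit of the CENP-HIKM group that links CENP-C to the outer layers. It was at 21.8, 17.7 and 22.1 CPM in siALDOA replicates 1, 2 and 3 and at 16.1, 15.7 and 15.9 CPM in siControl. The siControl libraries lay close together, siALDOA replicate 2 was the lowest of its group, and the groups did not overlap. The log2 fold change was 0.37 (SE 0.10, adjusted p = 0.0241). All 4 genes of the CENP-HIKM group were on the same side of 0, with values of 0.27 for CENPH (adjusted p = 0.111), 0.20 for CENPI (adjusted p = 0.384) and 0.081 for CENPM (adjusted p = 0.791). CENPM turned to -0.087 without siALDOA replicate 2. Of these 3, CENPH was higher in every siALDOA library, from 16.2 to 19.2 CPM against 13.9 to 15.6 CPM in siControl. CENPC, which binds the CENP-A nucleosome and the MIS12 complex, likewise showed no overlap, with 14.6, 14.8 and 13.9 CPM against 12.2, 12.3 and 13.1 CPM, and did not pass (log2 fold change 0.20, SE 0.10, adjusted p = 0.243). The gene of the mark itself, CENPA, was at 7.22, 7.32 and 7.50 CPM with siALDOA and 8.50, 6.46 and 6.56 CPM with siControl, with overlapping groups (log2 fold change 0.035, SE 0.14, adjusted p = 0.915).

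The other inner genes had values on both sides of 0. In the CENP-OPQU group, which helps recover attachments, values ran from -0.17 for CENPP to 0.17 for CENPU, and CENPQ was at 0.0079. CENPT and CENPW, histone-fold proteins that form a second bridge to the NDC80 complex, were at 0.16 and -0.010, and CENPL and CENPN, which read the CENP-A nucleosome, at 0.052 and -0.14. None of these 8 genes passed. Without siALDOA replicate 3, CENPT was at 0.029 and CENPL at 0.012, and CENPU was at 0.088 without siControl replicate 1 and at 0.34 without siControl replicate 2. CENPN was lower in every siALDOA library, at 30.2, 31.0 and 30.3 CPM against 33.8, 33.8 and 33.2 CPM in siControl (log2 fold change -0.14, SE 0.074, adjusted p = 0.266). The lowest value was that of CENPP, at 24.7, 23.7 and 27.4 CPM with siALDOA and 27.1, 27.98 and 30.2 CPM with siControl, which overlapped (log2 fold change -0.17, SE 0.086, adjusted p = 0.237). Its exons share 43.2% of their length with other genes on the opposite strand, mostly IPPK, whose own log2 fold change was -0.23 (SE 0.086, adjusted p = 0.108). CENPO shared 31.6% with ADCY3 and PTRHD1 and had a value of -0.074, beside -0.082 for ADCY3 and 0.19 for PTRHD1 (adjusted p = 0.331). CENPN shared 23.1% with neighbours that include CMC2, which went the other way at 0.30 (SE 0.079, adjusted p = 0.0196). The strand setting of the counting was not given, so the part of these neighbours in the 3 values was not tested. The same holds for other genes with opposite-strand neighbours. The exon length shared was 20.2% for CENPT, 15.8% for SGO1, 14.9% for CENPU and 10.9% for ZWILCH, the last with RPL4 and LCTL.

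The KMN network is the part of the kinetochore that holds microtubules. SPC24 (ENSG00000161888, chromosome 19, 11131520 to 11155807), which with SPC25 anchors the NDC80 complex to the inner kinetochore, was at 10.8, 11.7 and 12.4 CPM in the siALDOA replicates and at 8.82, 8.16 and 8.50 CPM in siControl. The lowest siALDOA library was above the highest siControl library. The log2 fold change of 0.46 (SE 0.12, adjusted p = 0.0165) was the highest of the 40 genes. The partners of SPC24 in the same 4-subunit complex had values of 0.25 for SPC25, 0.19 for NDC80 and 0.067 for NUF2. None of these 3 passed, with adjusted p of 0.323, 0.247 and 0.832, and in each of them the 2 groups of libraries overlapped. SPC25 was at 0.12 without siALDOA replicate 1, and NUF2 at 0.0018 without siALDOA replicate 3. At NDC80, siALDOA replicate 2 and siControl replicate 2 were both at 17.2 CPM.

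In the rest of the network, no gene passed. KNL1, the scaffold on which BUB proteins gather, was at 48.6, 42.7 and 43.96 CPM with siALDOA and 44.3, 34.5 and 40.3 CPM with siControl (log2 fold change 0.18, SE 0.085, adjusted p = 0.195), with siControl replicate 2 the lowest library. Without that library it was 0.091. ZWINT, its partner, was at -0.050. The MIS12 complex forms the base of the network, and its genes were at -0.12 for MIS12, -0.016 for DSN1 and 0.019 for NSL1. MIS12 was the lowest of the network, at 21.1, 19.96 and 16.0 CPM against 21.3, 22.1 and 18.9 CPM (log2 fold change -0.12, SE 0.11, adjusted p = 0.526), and the groups overlapped. Without siALDOA replicate 3 it was -0.018, and without siALDOA replicate 1 it was -0.20. Over all 9 genes of the network the median was 0.067 and 6 were above 0 (66.7%, against 50.3% of all tested genes). Of the 9, 1 passed (11.1%, against 4.36% of all tested genes that were higher). Leaving out 1 library gave medians from 0.0075 (siControl replicate 3) to 0.17 (siALDOA replicate 2).

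**Figure D2:**
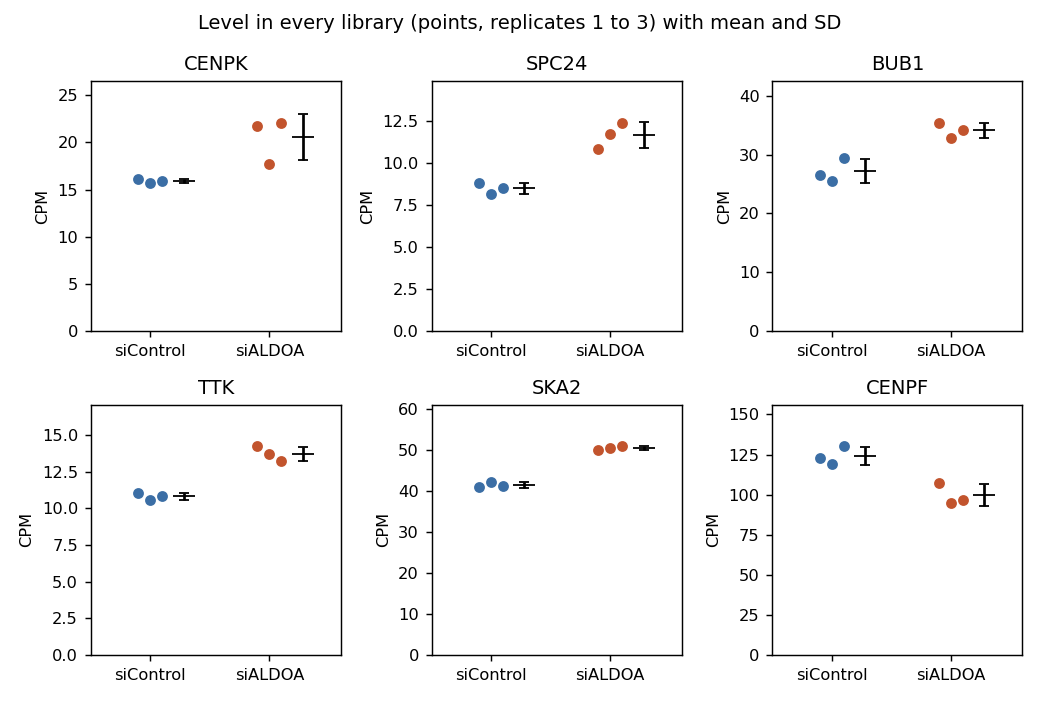
Level in CPM (y axis, from 0) of the 6 genes at an adjusted p below 0.05 in each library, siControl in blue and siALDOA in orange, with the mean and SD of 3 libraries in black. The groups do not overlap in any of the 6, and CENPF alone is lower with siALDOA.

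The checkpoint genes were all on the higher side (100%, against 50.3% of all tested genes). Their median was 0.18, the value of BUB1B. Of the 5, 2 passed (40%, against 4.36% of all tested genes that were higher). BUB1 (ENSG00000169679, chromosome 2, 110637528 to 110678063), a kinase that binds KNL1 and marks centromeric chromatin for shugoshin, was at 35.4, 32.8 and 34.2 CPM in the siALDOA replicates and at 26.6, 25.6 and 29.4 CPM in siControl. No library of one group reached the other group. The log2 fold change was 0.33 (SE 0.081, adjusted p = 0.0119). TTK (ENSG00000112742, chromosome 6, 80003887 to 80042527), the MPS1 kinase that starts checkpoint signalling, was at 14.2, 13.7 and 13.2 CPM and 11.0, 10.6 and 10.8 CPM, likewise without overlap. Its log2 fold change was 0.34 (SE 0.11, adjusted p = 0.0464), close to the threshold. BUB1B, which encodes BubR1 of the inhibitory complex, was higher in every siALDOA library, at 39.6, 36.2 and 39.98 CPM against 36.0, 33.3 and 32.8 CPM, and did not pass (log2 fold change 0.18, SE 0.076, adjusted p = 0.1499). Its exons share 10.2% of their length with PAK6 and a BUB1B-PAK6 readthrough gene on the same strand. MAD2L1, the gene of MAD2, was at 0.15 (adjusted p = 0.263). BUB3, the most abundant checkpoint mRNA per length here, was the lowest in change, at 141, 129 and 124 CPM against 124, 127 and 117 CPM, with overlapping groups and a log2 fold change of 0.099 (SE 0.063, adjusted p = 0.365) that was 0.044 without siALDOA replicate 1.

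The SKA complex had the highest median of the 7 sub-complexes, 0.28, which over 3 genes is the value of SKA2 itself. All 3 genes (100%, against 13.1% of all tested genes) were higher in every siALDOA library than in any siControl library. Of the 3, 1 passed (33.3%, against 4.36% of all tested genes that were higher). SKA2 (ENSG00000182628, chromosome 17, 59109857 to 59155260) was at 50.01, 50.4 and 50.8 CPM in the siALDOA replicates and at 40.9, 42.2 and 41.2 CPM in siControl. Both groups were tight, with SDs of 0.390 and 0.712 CPM (n = 3). The log2 fold change of 0.28 (SE 0.065, adjusted p = 0.00779) passed. SKA1, the microtubule-binding subunit, was at 8.51, 7.72 and 8.73 CPM and 5.23, 6.06 and 7.10 CPM. Its log2 fold change of 0.44 (SE 0.15, adjusted p = 0.0650) was larger than that of SKA2 but did not pass. SKA3 was at 22.1, 21.0 and 22.9 CPM and 20.6, 19.8 and 18.5 CPM and did not pass either (log2 fold change 0.16, SE 0.090, adjusted p = 0.281).

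In the fibrous corona 1 gene of 3 was above 0 (33.3%, against 50.3% of all tested genes). The median was -0.053, the value of CENPE. It turned to 0.0030 without siALDOA replicate 2, to 0.0073 without siControl replicate 3 and to 0.015 with library totals as the scaling. CENPF (ENSG00000117724, chromosome 1, 214603185 to 214664574), which gathers at the outer corona of the kinetochore and binds dynein regulators, was at 107, 95.0 and 96.4 CPM in the siALDOA replicates and at 123, 119 and 130.1 CPM in siControl. All siALDOA libraries were below all siControl libraries. The log2 fold change was -0.32 (SE 0.063, adjusted p = 0.00244), the smallest p of the 40 genes. The kinesin CENPE of the same layer had overlapping groups and a value of -0.053 (adjusted p = 0.803). ZWILCH, a subunit of the ROD-ZW10-Zwilch complex that brings dynein and MAD proteins to the kinetochore, was at 33.9, 27.6 and 27.5 CPM against 24.6, 24.8 and 26.0 CPM. The groups did not overlap and siALDOA replicate 1 was the highest, with a log2 fold change of 0.24 (SE 0.091, adjusted p = 0.108) that did not pass. Without siALDOA replicate 1 it was 0.13 (adjusted p = 0.390). The other 2 subunits of that complex were in a separate list and both passed. ZW10 was at 24.1, 19.998 and 19.6 CPM with siALDOA and 16.4, 15.9 and 15.3 CPM with siControl (log2 fold change 0.42, SE 0.10, adjusted p = 0.00984), and KNTC1, which encodes ROD, was at 38.0, 37.1 and 33.8 CPM and 29.3, 31.5 and 26.6 CPM (log2 fold change 0.32, SE 0.083, adjusted p = 0.0166).

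In the chromosomal passenger complex no gene passed and the 4 subunits were split, with a median of 0.028 that turned to -0.023 without siALDOA replicate 3 and to -0.043 without siControl replicate 2. AURKB, the catalytic subunit, was at 14.7, 12.6 and 15.3 CPM with siALDOA and 11.5, 11.5 and 12.2 CPM with siControl, without overlap (log2 fold change 0.27, SE 0.11, adjusted p = 0.130). BIRC5, the survivin subunit that binds histone H3, was at 38.3, 31.4 and 36.3 CPM and 38.7, 39.8 and 40.2 CPM, without overlap in the other direction (log2 fold change -0.16, SE 0.080, adjusted p = 0.218). Without siALDOA replicate 2 the BIRC5 value was -0.085. CDCA8, which encodes borealin, and the scaffold INCENP lay between them at 0.14 and -0.081, with overlapping groups. Without siControl replicate 2 they were at 0.058 and -0.14. The shugoshins protect centromeric cohesin. SGO2 was at 17.1, 16.0 and 14.0 CPM and 13.5, 13.5 and 12.6 CPM (log2 fold change 0.25, SE 0.11, adjusted p = 0.156), and SGO1 at 6.65, 5.89 and 8.02 CPM and 6.61, 6.23 and 6.37 CPM (log2 fold change 0.097, SE 0.15, adjusted p = 0.753). The SGO2 groups did not overlap, those of SGO1 did, and neither gene passed. SGO1 turned to -0.032 without siALDOA replicate 3.

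The libraries of a group differed in how far they shifted. For each library, the log2 CPM of every gene was set against the siControl mean of that gene and the median over the 40 genes was taken. It was 0.17, 0.073 and 0.14 in siALDOA replicates 1, 2 and 3 and -0.0090, -0.018 and -0.0064 in siControl, while the median over all tested genes stayed between -0.0012 and 0.0072. The siControl values lie near 0 because each gene was set against the mean of these same 3 libraries. siALDOA replicate 2 had the lowest level of its group in 21 of the 40 genes and the highest in 5. By sub-complex, the SKA medians were tightest, at 0.27 to 0.29 with siALDOA against -0.020 to 0.011 with siControl. Each is the middle value of 3 genes, so it shows 1 gene and not the spread of the complex. SKA1 ran from 5.23 to 7.10 CPM in siControl. The checkpoint medians ran from 0.088 to 0.23 against -0.053 to 0.013. The KMN medians overlapped, at 0.041 to 0.16 against -0.031 to 0.047, as did those of the passenger complex, at -0.032 to 0.13 against -0.078 to 0.055. Over the 40 genes the median coefficient of variation was 6.89% with siALDOA and 5.76% with siControl, and over all tested genes 8.13% and 6.91%.

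**Figure D3:**
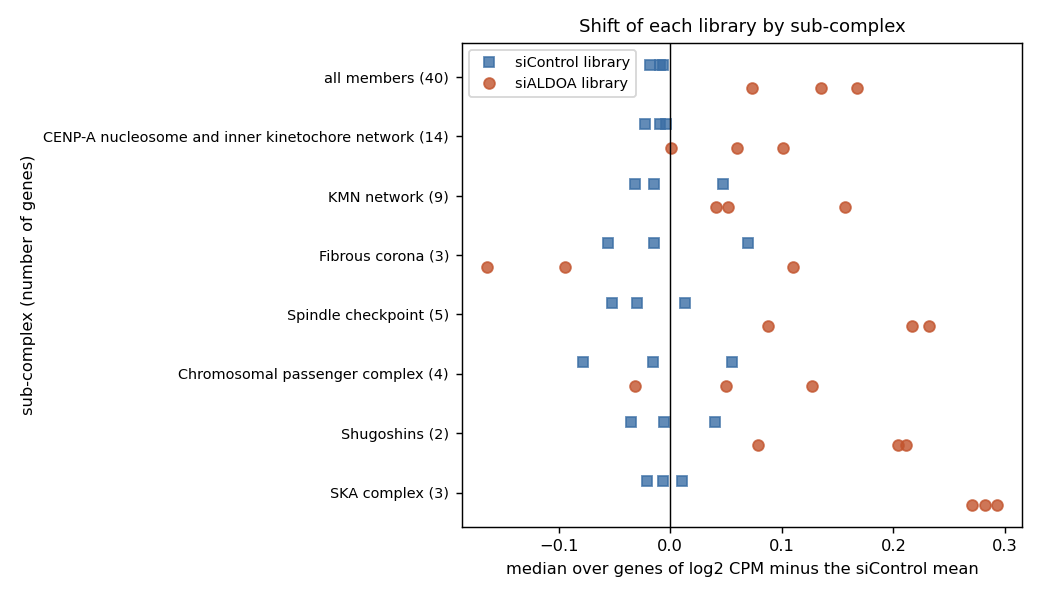
Median over the genes of a sub-complex of log2 CPM minus the siControl mean (x axis) for each library, with the sub-complexes and their numbers of genes on the y axis. Over all 40 genes the siALDOA libraries (orange circles) lie at 0.073 to 0.17, right of the siControl libraries (blue squares), and the corona, KMN and passenger rows overlap. In the inner kinetochore row the lowest siALDOA value, 0.00047, lies close to the highest siControl value, -0.0034. The siControl libraries lie near 0 because their own mean is the reference.

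Levels were compared between genes as CPM per kb of GENCODE exon, which counts all annotated isoforms and so understates genes with long rare exons. In siControl the 40 genes ran from 1.21 CPM per kb (CENPI) to 15.5 CPM per kb (ZWINT). Of the NDC80 complex, whose subunits act in equal number, NDC80 was at 4.70, SPC25 at 3.59, SPC24 at 2.99 and NUF2 at 2.23 CPM per kb in siControl. With siALDOA these levels were 5.36, 4.28, 4.10 and 2.34, so that SPC24 and SPC25 lay within their SDs of 0.272 and 0.763 of each other. In the SKA complex SKA2 was at 12.8, SKA3 at 6.55 and SKA1 at 2.11 CPM per kb in siControl, and the order was the same with siALDOA, at 15.6, 7.34 and 2.87. A processed pseudogene named after SKA2 is annotated, as for BUB1, and whether reads were shared with it was not tested.

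**Figure D4:**
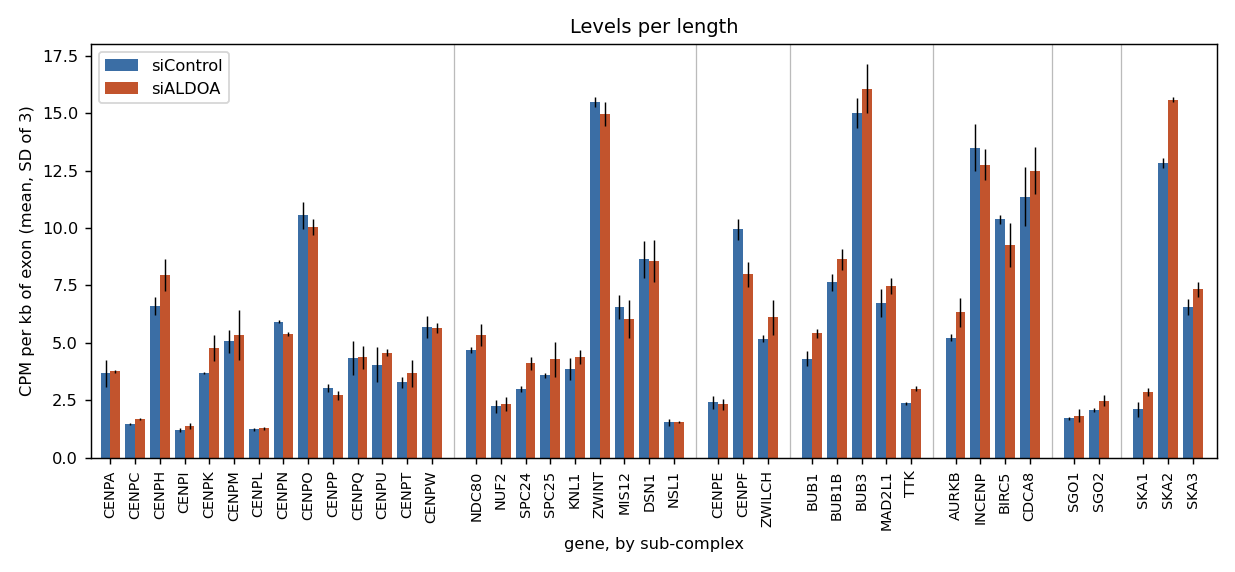
Level per length (y axis, CPM per kb of exon, mean and SD of 3 libraries) of each of the 40 genes (x axis, by sub-complex), siControl in blue and siALDOA in orange. ZWINT, BUB3, INCENP and SKA2 are the tallest bars in siControl and CENPI and CENPL the shortest.

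Other genes of the centromere and kinetochore, from a list of 21, had 12 values above 0, a median of 0.062 and 2 higher (9.52%, against 4.36% of all tested genes) and 1 lower (4.76%, against 5.29%) past the threshold. The 2 higher were ZW10 and KNTC1, given above. The lower was CENPB, a protein that binds a repeat sequence of centromeric DNA, at 148, 156 and 159 CPM with siALDOA and 182, 187 and 194 CPM with siControl (log2 fold change -0.28, SE 0.057, adjusted p = 0.00284). Of the genes that load CENP-A, HJURP was at 0.11 (adjusted p = 0.449) and OIP5 at 0.36 (adjusted p = 0.0575). Of 21 genes of cohesin and condensin, the ring complexes that hold and compact chromatids, 13 were above 0 (61.9%, against 50.3% of all tested genes) with a median of 0.063, and 3 were higher past the threshold (14.3%, against 4.36%). These were CDCA5, which encodes sororin (log2 fold change 0.26, SE 0.061, adjusted p = 0.00992), and the condensin genes SMC4 (log2 fold change 0.24, SE 0.062, adjusted p = 0.0149) and NCAPG (log2 fold change 0.28, SE 0.082, adjusted p = 0.0365).

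The values were not equally firm. Leaving out 1 library moved the log2 fold change by over 1.5 times, or across 0, in 23 of the 40 genes. The 17 not so moved include the 6 genes past the threshold and others that did not pass, such as CENPC and SKA1. This ratio flags values near 0 most easily. The 6 genes were picked in these same libraries for a large value over its SE, so the ratio is no separate sign of their firmness. SKA2 passed in all 15 alternative settings, with a log2 fold change from 0.27 to 0.36. CENPF passed in 14 and missed with scaling by library totals only, at -0.25 (adjusted p = 0.0623). BUB1 passed in 14 and missed without siControl replicate 2 (adjusted p = 0.0768). CENPK and SPC24 each missed in 4 of the 6 fits that left out 1 library, with an adjusted p up to 0.107 and 0.0737. TTK missed in all 6 of those fits, with limma-voom (adjusted p = 0.0540) and without the filter on low counts (adjusted p = 0.0529). SKA1 passed in 3 settings, among them the fit with a replicate block (adjusted p = 0.0365). The number of the 40 genes that were higher fell from 5 to 3 without siALDOA replicate 1 or siALDOA replicate 2, to 2 without siALDOA replicate 3 or siControl replicate 3, and to 1 without siControl replicate 2.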

How the data were processed

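RNA-Seq of HT29 cells was analysed in 6 libraries, 3 siALDOA and 3 siControl, grouped by the sample titles. Per the study's methods, the authors used tophat2 for alignment to hg38 and gfold for gene counts, and the deposited files hold raw counts, 1 library a file, in 2 columns. The gene annotation, strand setting and treatment of reads with several matches are not given in the sources used here. Totals ranged from 27277538 to 33237914 counts. The number of libraries limits the precision.

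Counts were tested in R 4.3.3 with edgeR 4.0.16 (filterByExpr, TMM, quasi-likelihood F-test, Benjamini-Hochberg adjustment over 15307 genes, threshold 0.05), as the study used edgeR and limma. Standard errors are the log2 fold change over the square root of F. Log2 CPM used a prior count of 2. P-values set the difference between the groups against the spread between these libraries, which was estimated with help from all tested genes. The libraries are replicates of 1 cell line. Positions and exon lengths came from GENCODE release 44 on hg38, and promoters from RefSeq (GRCh38.p14). The 15 alternatives used other scalings, DESeq2 1.42.0, limma 3.58.1, other filters, a replicate block and fits that leave out each library in turn. Tables used pandas 2.3.3 and figures matplotlib 3.10.9.

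The genes and lists were chosen with earlier results of these data known. Named in full were ALDOA, genes at an adjusted p below 0.05 and, in each sub-complex, the gene with the smallest p and those with the highest and lowest log2 fold change. Neighbours sharing exons were added after their values were seen, as were the values by library of CENPA, CENPC, CENPH, CENPN, KNL1 and BUB1B, and the genes of the other lists that did not pass. Some items are not reported here.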

Additional observations from a re-analysis of the deposited data

How the results depend on the processing

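Every alternative left the direction of the 6 genes past the threshold and of ALDOA (log2 fold change from -1.17 to -1.06) as it was, and 27 to 33 of the 40 genes had a value above 0. Over the 16 genes described in full, 219 of the 240 recomputed values kept their side of the threshold, 18 no longer passed and 3 newly passed. For genes that had not passed, keeping their side only means that they again did not pass. All 18 losses were among the 6 genes past the threshold. Of the 15 settings, TTK passed in 7, CENPK and SPC24 in 11, CENPF and BUB1 in 14 and SKA2 in 15. The 3 new passes were of SKA1. With library totals as the only scaling, the median over all tested genes was 0.075 and the number of lower genes 279 in place of 810. Under it CENPF no longer passed, so that 0 of the 40 genes were lower, and the median over the 40 genes rose to 0.21. That is 0.14 above the median of all genes, as with TMM. The medians were then 0.14 for the inner kinetochore, 0.14 for the KMN network, 0.25 for the checkpoint, 0.25 for the shugoshins, 0.36 for the SKA complex, 0.099 for the passenger complex and 0.015 for the corona, whose median was below 0 with TMM.

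Leaving out each library in turn gave 359 to 644 higher and 471 to 790 lower genes, and 1 to 4 higher genes among the 40. The median over the 40 genes ranged from 0.11 to 0.18, for the inner kinetochore from 0.020 to 0.11 and for the KMN network from 0.0075 to 0.17. The medians of the corona, from -0.15 to 0.0073, and of the passenger complex, from -0.043 to 0.085, changed sign. Of the 40 genes, 8 were above 0 in some of these fits and below 0 in others (CENPA, CENPM, CENPQ, CENPW, DSN1, NSL1, CENPE and SGO1). The replicate numbers are shared by the groups, but the deviations of same-numbered libraries correlated at 0.0348, 0.0274 and 0.0262, below 0.1, although each library correlated best with its own number. A replicate block gave 987 higher and 1175 lower genes and 6 higher genes among the 40, the added one being SKA1. Depth was at least 133 counts for each of the 40 genes in each library.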

Other observations

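Genes that act around the kinetochore in mitosis were also measured. Of 14 mitotic kinases and cyclins, 12 had a log2 fold change above 0 (85.7%, against 50.3% of all tested genes) with a median of 0.13, and 1 was higher past the threshold (7.14%, against 4.36%). This was MASTL, the Greatwall kinase that restrains a phosphatase opposing CDK1, at 22.5, 20.9 and 22.6 CPM with siALDOA and 18.1, 17.3 and 17.5 CPM with siControl (log2 fold change 0.32, SE 0.089, adjusted p = 0.0281). CDK1 was at 0.15 (adjusted p = 0.180), CCNB1 at 0.20 (adjusted p = 0.1201) and PLK1 at 0.045 (adjusted p = 0.819). Of 12 regulators of mitotic transcription, 8 were above 0 (66.7%) with a median of 0.070, and 1 was higher past the threshold (8.33%), RBL2, which encodes the repressor p130 (log2 fold change 0.27, SE 0.076, adjusted p = 0.0257). FOXM1, an activator of G2 genes, was at 0.16 (adjusted p = 0.162). The value farthest from 0 in this list was that of LIN52, a subunit of the MuvB core, which was lower in every siALDOA library and did not pass (log2 fold change -0.38, SE 0.14, adjusted p = 0.0893).

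Of 21 genes of the anaphase-promoting complex and its partners, the target of the checkpoint, 13 were above 0 (61.9%, against 50.3% of all tested genes) with a median of 0.016. Counts past the threshold were 0 in either direction in edgeR's test, and 3 genes had an unadjusted p below 0.05 (14.3%, against 23.6% of all tested genes). CDC20, the subunit that the checkpoint holds, was at 0.073 (adjusted p = 0.628).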
